A study of Mus musculus with 12 samples.

Results

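Core and output genes of the circadian clock were followed through the response of mouse peritoneal cells to LPS, the bacterial cell wall component sensed by TLR4. The genes, chosen by name, were *Clock*, *Per1*, *Per2*, *Cry1*, *Cry2*, *Nr1d1*, *Nr1d2*, *Dbp*, *Tef* and *Bhlhe40*. All 10 were among the 12850 genes listed in the data, and all 10 were among the 11885 genes that had at least 1 CPM (reads scaled to a common library size) in at least 2 libraries and were tested. PECs, the cells drawn to the peritoneal cavity by an injection of thioglycollate medium, came from C57BL/6 mice that were either WT or homozygous for the S513A substitution in *Zc3h12a* (*Zc3h12a* S513A/S513A, called S513A), the gene for the mRNA-degrading protein Regnase-1. PECs of each genotype were harvested without LPS (0 hr) or after 4 or 8 hr with LPS at 100 ng/ml, with 2 libraries in each of the 6 groups and 12 libraries in all. Every group shared the thioglycollate injection and the culture in serum-containing medium, and the labels give neither the age nor the sex of the mice. The labels do not say that the 2 libraries of a group came from separate animals, so the p-values measure only the spread between these libraries, which may be technical. No group is labelled as cultured for 4 or 8 hr without LPS. The labels give neither the total hours in culture nor the time of day at harvest, and either may differ between time points. The effect of LPS therefore cannot be told apart from these in any comparison between time points.

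In the mammalian clock, the transcription factors CLOCK and BMAL1 (encoded by *Arntl*) bind E-box DNA as a dimer and drive the genes of their own inhibitors, the PER and CRY proteins, so that transcription rises and falls over the day. A second loop runs through the nuclear receptors NR1D1 and NR1D2 (REV-ERB), which repress *Arntl*, and their competitors of the ROR family, which activate it. Macrophages hold their own clock, and the NR1D proteins are known there as repressors of several inflammatory genes.

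The E-box is the sequence through which these genes feed back on each other, and stretches of promoter that held one are therefore shown here. The letters CACGTG, which read the same on both strands, were searched in RefSeq promoter windows of the GRCm38.p6 assembly, each 300 bases long, with 250 bases before and 50 bases after a gene start. The table held 12 windows for 8 of the genes and none for *Per2* or *Bhlhe40*. An E-box stood in 4 windows of 3 genes (*Per1*, *Cry1* and *Tef*, which has 2 such windows), whereas 7.15% of all 32851 windows of this length held one. Capitals mark the E-box, and each stretch of 80 bases is written 5′ to 3′ on the strand of the gene. In *Per1* the stretch lies at chr11:69098746-69098825 on the plus strand, in an intron of the annotated gene and upstream of an internal start, and its E-box begins 166 bases before that start. That of *Cry1* lies at chr10:85185072-85185151 on the minus strand, outside the gene, with the E-box 60 bases before the start. In *Tef* the stretch shown lies at chr15:81811239-81811318 on the plus strand, in an intron, with the E-box 138 bases before a second start of the gene. The stretch before the first start of *Tef* lies in an annotated exon and is not printed.
Per1: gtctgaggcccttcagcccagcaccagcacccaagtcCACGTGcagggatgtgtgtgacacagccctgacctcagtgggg
Cry1: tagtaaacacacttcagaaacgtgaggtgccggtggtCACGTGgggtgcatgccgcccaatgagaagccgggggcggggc
Tef: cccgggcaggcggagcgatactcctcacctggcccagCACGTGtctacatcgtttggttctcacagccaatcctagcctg
The D-box bound by DBP and TEF (TTATGTAA or TTACGTAA, in 1.06% of all windows), the element of the ROR and NR1D receptors (TAGGTCA or TGGGTCA, 6.45%) and the CRE (TGACGTCA, 1.79%), each searched on both strands, did not occur in the windows of the clock genes. TGACG, which is contained in the CRE and lies in 20.8% of all windows, occurred in both windows of *Per1* and in those of *Cry1* and *Cry2*. These matches describe the letters of the windows and do not show that a factor was bound.

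Reads on the listed genes numbered from 9525979 to 12439960 per library, and 3 reads, taken as the floor of detection, correspond to a log2 CPM between -2.04 and -1.30. All 7 macrophage markers examined (*Adgre1*, *Cd68*, *Csf1r*, *Itgam*, *Lyz2*, *Mertk* and *Fcgr1*) were listed, with a summed level of 16200 to 26400 CPM. Those of other cells summed to 20.3 to 108 CPM for neutrophils (2 of 5 listed, without *Ly6g*), 13.3 to 53.1 for fibroblasts (3 of 3), 3.62 to 18.5 for eosinophils (2 of 4, without *Prg2* and *Epx*), 3.44 to 8.87 for B cells (4 of 4), 0.88 to 2.17 for mast cells (2 of 3) and 0.116 to 1.32 for mesothelial cells (2 of 3), and no T cell marker (0 of 3) was listed. The eosinophil markers fell with time, from 15.3 to 18.5 CPM at 0 hr to 8.02 to 10.0 at 4 hr and 3.62 to 4.58 at 8 hr. The neutrophil sum holds only *S100a8* and *Camp*, as *S100a9*, *Ly6g* and *Retnlg* were not listed. The neutrophil markers were higher at each later time in WT (20.3 to 35.4, 45.4 to 64.9 and 84.2 to 102 CPM) and overlapped between times in S513A (51.1 to 54.2, 53.3 to 108 and 33.5 to 86.9 CPM). Their part in the changes of the clock genes was not tested, and in these bulk samples fewer cells of a type and less RNA per cell cannot be told apart. The 2 WT libraries at 4 hr differed most from each other, with an SD of the log2 difference between replicates of 0.40 over 8353 genes, against 0.16 to 0.34 in the other groups.

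Before LPS, *Bhlhe40* was by far the most abundant of the clock genes. Expressed per kb of annotated exon, its mean level over the 4 libraries at 0 hr was 44.7 CPM per kb (range 43.3 to 45.7). *Nr1d2* followed at 8.80 and *Tef* at 7.31, and the libraries of each of these 3 genes were apart from those of the next. *Per1* (3.41), *Clock* (3.40) and *Cry1* (2.68) overlapped their neighbours, *Dbp* (2.12) stood apart, and *Per2* (1.27), *Nr1d1* (1.25) and *Cry2* (0.791 CPM per kb) overlapped in turn. At 4 hr *Bhlhe40* was still the highest, at 11.0 CPM per kb, while *Clock* (4.86) and *Cry1* (4.55) had moved ahead of *Nr1d2* (4.54) in an order in which these 3 overlapped. *Dbp* was then the lowest, at 0.178 CPM per kb and apart from the next gene, *Per2* (0.551). At 8 hr the order was again led by *Bhlhe40* (15.1), *Nr1d2* (6.60) and *Tef* (4.71 CPM per kb), with *Tef* overlapping *Clock* (3.78). The lowest were *Cry2* (0.968), *Per2* (0.807) and *Dbp* (0.553), whose libraries overlapped.

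**Figure D1:**
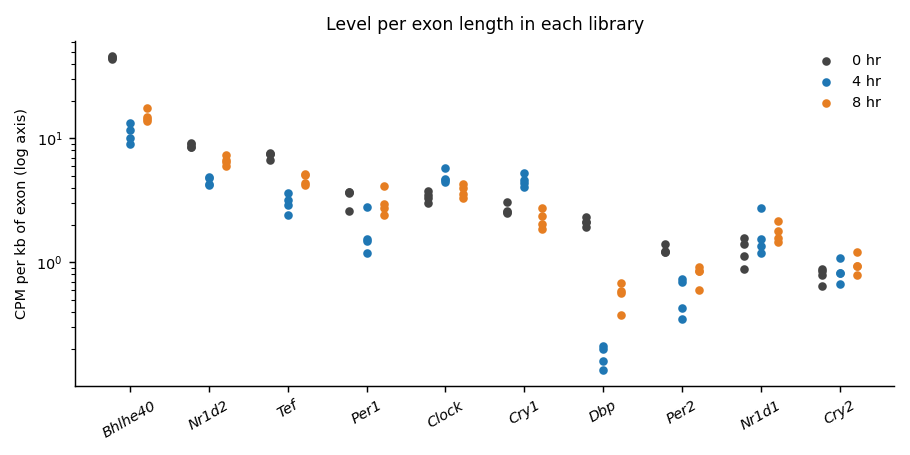
Level of each clock gene per kb of annotated exon (CPM per kb, log axis), with a point for each of the 12 libraries coloured by time of LPS and genes ordered by their mean at 0 hr. *Bhlhe40* lies above the other genes at every time point, and *Dbp* drops from 2.12 to 0.178 CPM per kb between 0 and 4 hr.

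Over the first 4 hr of LPS, 8 of the 10 clock genes changed when the genotypes were averaged, 2 upwards and 6 downwards. *Clock* and *Cry1* rose, *Per1*, *Per2*, *Nr1d2*, *Dbp*, *Tef* and *Bhlhe40* fell, and *Cry2* and *Nr1d1* did not pass the test. Much of the transcriptome differed between these times, as 55.8% of all tested genes passed the same test at 4 hr, 29.1% higher and 26.7% lower (limma, Benjamini-Hochberg adjusted p under 0.05), which is the background for these counts. The median log2 fold change of the 10 genes was -0.99, against 0.017 over all genes. By 8 hr, 5 clock genes were lower than at 0 hr and 0 were higher (*Per2*, *Nr1d2*, *Dbp*, *Tef* and *Bhlhe40*), with a median of -0.34, where 46.1% of all genes were called, 24.5% higher and 21.6% lower. Between 4 and 8 hr, 7 clock genes passed the test: *Per1*, *Nr1d2*, *Dbp*, *Tef* and *Bhlhe40* rose and *Clock* and *Cry1* fell, with a median over the 10 genes of 0.50, against a background of 25.6% called, 12.8% higher and 12.8% lower. This contrast and that of 4 against 0 hr share the libraries at 4 hr, so their directions are not independent of each other.

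**Figure D2:**
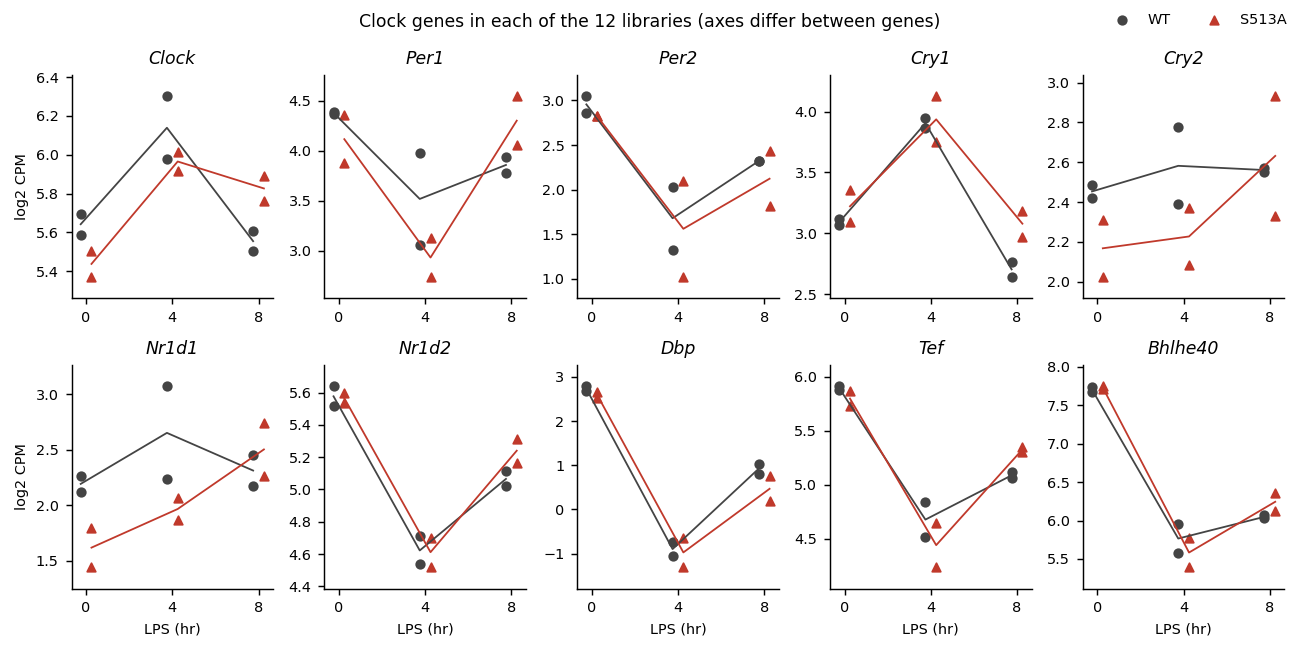
Log2 CPM of the 10 clock genes against hours of LPS, with a point for each library (circles WT, triangles S513A, shifted sideways for clarity) and lines through the means of the 2 libraries of a group. *Nr1d2*, *Dbp*, *Tef* and *Bhlhe40* drop at 4 hr in all libraries and regain part of the loss at 8 hr, while *Cry1* peaks at 4 hr.

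*Clock* encodes the partner of BMAL1 in the activating dimer. Through the 3 time points its log2 CPM in WT was 5.70 and 5.59, then 5.98 and 6.30, then 5.50 and 5.61. In S513A it was 5.37 and 5.50, then 5.92 and 6.01, then 5.89 and 5.76. All 4 libraries at 4 hr lay above all 4 at 0 hr, and those at 8 hr overlapped those at 0 hr. The averaged log2 fold change was 0.51 at 4 hr (SE 0.090, limma adjusted p = 0.000594), and that from 4 to 8 hr was -0.36 (SE 0.090, limma adjusted p = 0.0134). Without WT 8 hr replicate 1 the latter call was lost (limma adjusted p = 0.0595).

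The *Per* genes encode the partners of CRY in the repressing complex. *Per1* stood at a log2 CPM of 4.39 and 4.37 in WT without LPS, then at 3.06 and 3.98 after 4 hr, and 3.94 and 3.78 after 8 hr. The S513A libraries gave 4.36 and 3.87 without LPS, then 3.12 and 2.74, and last 4.54 and 4.05. The second WT library at 4 hr was the highest of its time point and overlapped the lowest library at 0 hr. The averaged log2 fold change of *Per1* was -1.02 at 4 hr (SE 0.20, limma adjusted p = 0.00146), a 2.03-fold decrease, and rose by 0.85 from 4 to 8 hr (SE 0.20, limma adjusted p = 0.0113). At 8 hr its log2 fold change from 0 hr was -0.17, with a 95% confidence interval from -0.62 to 0.28. The rise of *Per1* from 4 to 8 hr was 0.34 within WT (-0.30 to 0.98), where the libraries overlapped, and 1.37 within S513A (0.73 to 2.01). *Per2* started lower, at a log2 CPM of 2.86 and 3.05 in WT and 2.82 and 2.83 in S513A. It reached 1.33 and 2.03 in WT and 2.10 and 1.02 in S513A at 4 hr, and 2.32 and 2.32 in WT and 2.43 and 1.81 in S513A at 8 hr. The libraries at 4 hr all lay below those at 0 hr, but spread over more than a log2 unit. *Per2* was 2.41-fold lower at 4 hr (log2 fold change -1.27, SE 0.25, limma adjusted p = 0.00124). At 8 hr the log2 fold change was -0.67 (SE 0.25, limma adjusted p = 0.047), a call that was lost without either WT library at 0 hr, either at 8 hr, either S513A library at 0 hr or S513A 8 hr replicate 2. Over all alternatives its limma adjusted p ranged from 0.005 to 0.14.

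*Cry1* and *Cry2*, whose proteins block the CLOCK:BMAL1 dimer, parted from each other. *Cry1* rose from a log2 CPM of 3.07 and 3.11 in WT and 3.35 and 3.09 in S513A at 0 hr to 3.86 and 3.94 in WT and 4.13 and 3.75 in S513A at 4 hr. By 8 hr it stood at 2.76 and 2.64 in WT and 3.19 and 2.97 in S513A. The libraries at 4 hr were above all others. The rise at 4 hr was 1.70-fold (log2 fold change 0.76, SE 0.12, limma adjusted p = 0.000258) and the fall from 4 to 8 hr 2.04-fold (log2 fold change -1.03, SE 0.12, limma adjusted p = 0.000165). At 8 hr *Cry1* did not pass the test against 0 hr (log2 fold change -0.27, limma adjusted p = 0.0926). *Cry2* lay between a log2 CPM of 2.02 and 2.93 in all 12 libraries, and the time points overlapped. After 4 hr the log2 fold change was 0.094 (95% confidence interval -0.27 to 0.46, limma adjusted p = 0.656). After 8 hr it was 0.29 (-0.079 to 0.65, limma adjusted p = 0.186).

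The receptors of the second loop also moved unequally. *Nr1d2* fell from a log2 CPM of 5.52 and 5.64 in WT and 5.59 and 5.54 in S513A at 0 hr to 4.54 and 4.71 in WT and 4.70 and 4.52 in S513A at 4 hr. At 8 hr the levels were 5.02 and 5.11 in WT and 5.31 and 5.17 in S513A. The 3 time points did not overlap. The decrease was 1.94-fold at 4 hr (log2 fold change -0.95, SE 0.084, limma adjusted p = 3.22e-06) and 1.34-fold at 8 hr (log2 fold change -0.42, SE 0.084, limma adjusted p = 0.00195). *Nr1d1* had a log2 CPM of 2.12 and 2.27 in WT and 1.79 and 1.45 in S513A at 0 hr, 2.24 and 3.07 in WT and 2.06 and 1.87 in S513A at 4 hr, and 2.17 and 2.46 in WT and 2.74 and 2.27 in S513A at 8 hr. It was highest in the second WT library at 4 hr, and the time points overlapped. Its log2 fold change was 0.40 at 4 hr (SE 0.20, limma adjusted p = 0.112) and 0.50 at 8 hr (SE 0.20, limma adjusted p = 0.0634). The 8 hr value passed the threshold when any of WT 4 hr replicate 1, WT 4 hr replicate 2 or S513A 8 hr replicate 2 was left out, and the 4 hr value without WT 4 hr replicate 1, the lowest adjusted p-values being 0.0192 and 0.0142 over all alternatives. The WT libraries at 4 hr are not part of the 8 hr fold change, so leaving either out altered only the estimated spread. *Nr1d1* shares 263 exonic bases (8.55% of its exon length) with *Thra*, which lies on the opposite strand. *Thra* stayed between a log2 CPM of 3.07 and 3.52 in all libraries, and its log2 fold change was -0.10 after 4 hr and -0.027 after 8 hr.

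The largest decrease among the 10 genes was that of *Dbp*, an output transcription factor of the PAR bZIP family that the CLOCK:BMAL1 dimer drives. *Dbp* fell from a log2 CPM of 2.67 and 2.78 in WT and 2.52 and 2.66 in S513A at 0 hr to -1.05 and -0.74 in WT and -0.64 and -1.30 in S513A at 4 hr. It returned to 0.81 and 1.04 in WT and to 0.75 and 0.18 in S513A at 8 hr. The 3 time points did not overlap. In reads, the 4 libraries at 0 hr together held 320 and those at 4 hr 20, with 3 reads in the second S513A library at 4 hr, which is the floor. After allowance for library size this was a 13.0-fold difference with an exact 95% counting interval of 8.25 to 21.5, which covers counting error only. On the log2 scale the change was -3.59 at 4 hr (SE 0.23, limma adjusted p = 2.14e-07), the 34th lowest of the 11885 genes tested. At 8 hr *Dbp* was 3.90-fold below its level at 0 hr (log2 fold change -1.96, SE 0.23, limma adjusted p = 3.56e-05), and 3.09-fold above that at 4 hr (log2 fold change 1.63, SE 0.23, limma adjusted p = 0.000505). With 1 CPM added before the logarithm, a setting that shrinks the change of scarce transcripts, the value at 4 hr was -2.26 and that for 8 against 4 hr 0.78, both still called. *Dbp* shares 539 exonic bases (18.0%) with *Sphk2*, which had a log2 CPM of 6.05 to 6.57 in all libraries and a log2 fold change of 0.072 after 4 hr (limma adjusted p = 0.465) and of 0.23 after 8 hr (limma adjusted p = 0.0341).

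*Tef*, of the same PAR bZIP family, had a log2 CPM of 5.91 and 5.88 in WT and 5.87 and 5.73 in S513A at 0 hr, 4.51 and 4.84 in WT and 4.64 and 4.24 in S513A at 4 hr, and 5.11 and 5.06 in WT and 5.35 and 5.30 in S513A at 8 hr. The time points did not overlap. It fell 2.44-fold at 4 hr (log2 fold change -1.29, SE 0.11, limma adjusted p = 1.91e-06) and was 1.56-fold lower at 8 hr (log2 fold change -0.64, SE 0.11, limma adjusted p = 0.000549). *Bhlhe40* (DEC1) encodes a repressor that competes with CLOCK:BMAL1 for the E-box. Its log2 CPM was 7.74 and 7.67 in WT and 7.75 and 7.71 in S513A at 0 hr. At 4 hr it was 5.57 and 5.96 in WT and 5.77 and 5.40 in S513A, and at 8 hr 6.03 and 6.07 in WT and 6.36 and 6.13 in S513A. The libraries at 0 hr lay close together, and all later libraries lay far below them. The decrease was 4.12-fold at 4 hr (log2 fold change -2.04, SE 0.11, limma adjusted p = 6.12e-08), the 276th lowest of all genes, and 2.97-fold at 8 hr (log2 fold change -1.57, SE 0.11, limma adjusted p = 6.14e-07). From 4 to 8 hr it regained 0.47 on the log2 scale (SE 0.11, limma adjusted p = 0.00966). *Cry2*, *Tef* and *Bhlhe40* also share 2.45% to 4.67% of their exon length with genes that are not among those listed.

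**Figure D3:**
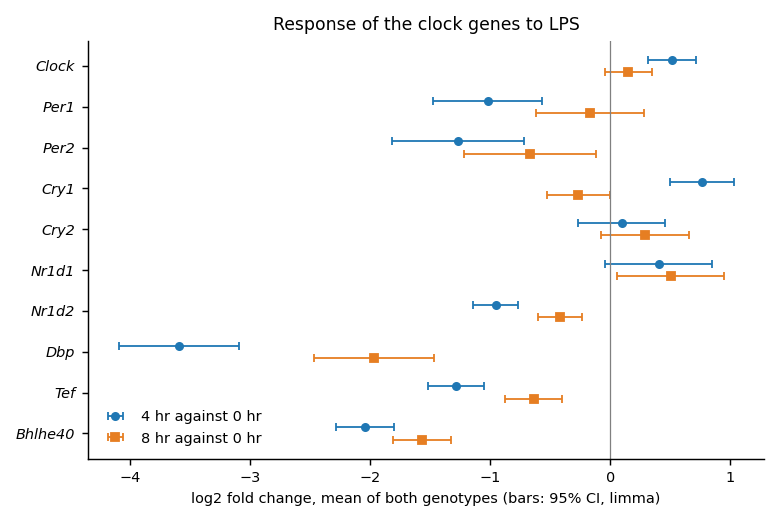
Log2 fold change of each clock gene at 4 hr (circles) and 8 hr (squares) of LPS against 0 hr, as the mean of both genotypes, with 95% confidence intervals from limma. *Dbp* and *Bhlhe40* show the greatest decreases (-3.59 and -2.04 at 4 hr), the values at 8 hr lie nearer to 0 for 8 genes, and the intervals of *Cry2* include 0 at both times.

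To describe how paralogs differed in their response, the log2 ratio of their CPM was taken within each library and compared between time points. The 12 comparisons, of 4 pairs in 3 contrasts, were set after the values had been seen. Each was a two-sided exact permutation test of 4 libraries against 4, where p cannot go below 0.0286. Being drawn from the values described above, these tests give no separate support for an unequal response. Each adjusted p of 0.049 belongs to a comparison at that limit. *Nr1d1* relative to *Nr1d2* went from -3.66 ± 0.35 (SD, n = 4) at 0 hr to -2.31 ± 0.47 at 4 hr and -2.74 ± 0.15 at 8 hr, so that the ratio was 1.36 higher at 4 hr and 0.92 higher at 8 hr on the log2 scale (exact p = 0.0286 and adjusted p = 0.049 for each). *Cry1* relative to *Cry2* went from 0.85 ± 0.24 without LPS to 1.52 ± 0.26 after 4 hr and 0.29 ± 0.24 after 8 hr. This ratio was 0.67 higher at 4 hr than at 0 hr and 1.22 lower at 8 hr than at 4 hr (exact permutation adjusted p = 0.049 for each), and 0.55 lower at 8 hr than at 0 hr (exact permutation adjusted p = 0.0857). *Dbp* relative to *Tef* went from -3.18 ± 0.13 without LPS to -5.49 ± 0.14 after 4 hr and -4.51 ± 0.47 after 8 hr, with an exact permutation adjusted p of 0.049 in all 3 contrasts. *Per1* relative to *Per2* differed by 0.25 at 4 hr and 0.50 at 8 hr from 0 hr, with exact permutation adjusted p-values of 0.374 and 0.114. With any library of a contrast left out, 3 against 4 libraries cannot reach the threshold.

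The genotypes were also tested apart. In WT, 8 clock genes were called at 4 hr against 0 hr (41.3% of all genes), 4 at 8 hr against 0 hr (34.3%) and 4 at 8 hr against 4 hr (14.2%). In S513A the numbers were 8 (43.2%), 5 (39.9%) and 6 (18.3%). The WT and S513A fold changes have no library in common. Their p-values are not independent, since the spread of each gene was estimated from all 12 libraries together. These counts rest on 2 libraries a group and were less stable than the averaged ones. How the shares of all genes moved with a library left out is not given. The WT count at 4 hr was 5 without WT 0 hr replicate 2, and that at 8 against 4 hr was 2 without either WT library at 8 hr. In S513A the count at 4 hr was 5 without S513A 0 hr replicate 1. That at 8 hr was 2 without either S513A library at 0 hr or S513A 8 hr replicate 1, and that at 8 against 4 hr was 2 without S513A 4 hr replicate 2 or S513A 8 hr replicate 1. In S513A the 5 calls at 8 hr comprised *Clock* (log2 fold change 0.39, limma adjusted p = 0.0321) and *Nr1d1* (0.88, limma adjusted p = 0.0306) among the higher genes, and *Dbp*, *Tef* and *Bhlhe40* among the lower. *Per2*, lower at 8 than at 0 hr in the average, was called in neither genotype (-0.64 in WT and -0.70 in S513A, limma adjusted p = 0.186 and 0.136). *Nr1d2* was not called in S513A in that contrast (-0.33, limma adjusted p = 0.0502). Some genes called from 4 to 8 hr in the average were not called within a genotype. These were *Per1* (0.34), *Tef* (0.41) and *Bhlhe40* (0.28) in WT (limma adjusted p = 0.469, 0.0978 and 0.256) and *Clock* (-0.14) in S513A (limma adjusted p = 0.455).

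No clock gene passed the test between genotypes. S513A against WT gave 0 of 10 genes at 0 hr, at 4 hr, at 8 hr and for the mean of the time points in limma, and 0 with voom weights, while 0.0337%, 0.0168%, 0.0337% and 0.0673% of all genes were called. At an unadjusted p under 0.05 there were 0, 1, 1 and 0 clock genes, against 7.98%, 7.01%, 12.5% and 6.71% of all genes. The 1 at 4 hr was *Nr1d1*, lower in S513A (log2 fold change -0.69, 95% confidence interval -1.32 to -0.055, limma adjusted p = 0.622). Its value at 0 hr was -0.57 (-1.20 to 0.056, limma adjusted p = 0.586). At 8 hr *Nr1d1* overlapped between the genotypes (0.19, -0.44 to 0.82). The 1 at 8 hr was *Cry1*, higher in S513A (log2 fold change 0.38, 95% confidence interval 0.0040 to 0.75, limma adjusted p = 0.397). Averaged over time, the interval was narrowest for *Nr1d2* (0.051, -0.10 to 0.20) and also lay within 0.25 of 0 on both sides for *Clock* (-0.036, -0.20 to 0.13), *Tef* (-0.031, -0.22 to 0.16) and *Bhlhe40* (0.013, -0.18 to 0.21). The value farthest from 0 was that of *Nr1d1* (-0.36, -0.72 to 0.0075, limma adjusted p = 0.752). The intervals of *Cry1* (0.18, -0.035 to 0.39), *Cry2* (-0.19, -0.49 to 0.11), *Per1* (-0.14, -0.50 to 0.23), *Per2* (-0.15, -0.60 to 0.30) and *Dbp* (-0.22, -0.63 to 0.19) also reached farther than 0.25.

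**Figure D4:**
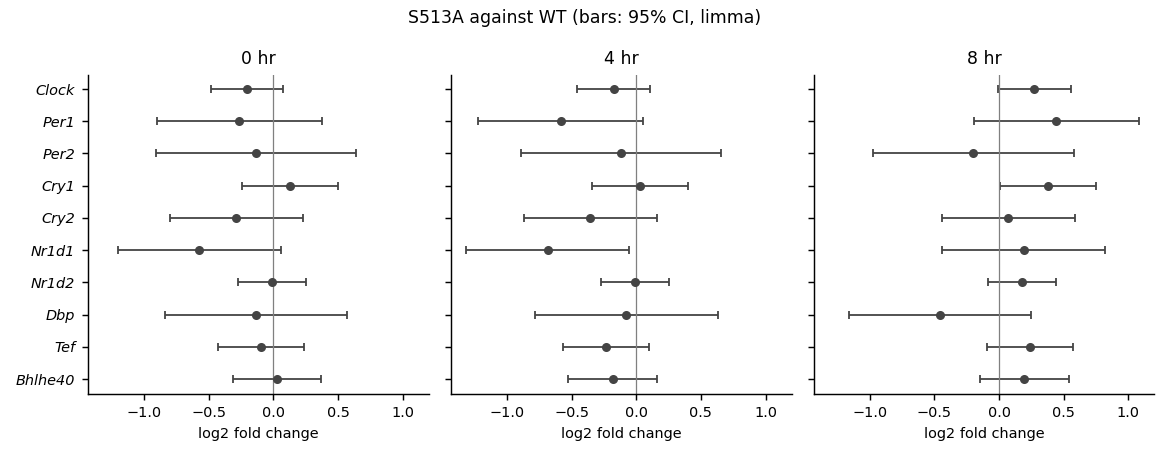
Log2 fold change of S513A against WT for each clock gene at 0, 4 and 8 hr, with 95% confidence intervals from limma. The intervals of 9 genes at 4 hr and 9 genes at 8 hr include 0, the exceptions being *Nr1d1* at 4 hr (-0.69) and *Cry1* at 8 hr (0.38), neither of which passed the adjusted threshold.

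The response to LPS was also compared between the genotypes as an interaction. It gave 0 of 10 clock genes at 4 hr and at 8 hr in limma and with voom weights, where 0.0% and 0.0% of all genes were called. At an unadjusted p under 0.05, 0 and 1 clock genes were found, against 1.21% and 20.2% of all genes. The gene was *Clock* at 8 hr (log2 interaction 0.48, limma adjusted p = 0.206). In WT its log2 CPM was 5.70 and 5.59 at 0 hr and 5.50 and 5.61 at 8 hr. These libraries overlapped (log2 fold change -0.087). In S513A it rose from 5.37 and 5.50 at 0 hr to 5.89 and 5.76 at 8 hr (log2 fold change 0.39). S513A against WT was -0.20 at 0 hr and 0.27 at 8 hr, so the interaction also holds the lower level of S513A at 0 hr.

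Beyond these 10, a list of 48 further genes of the clock and its outputs was examined, of which 45 were tested (*Rorb*, *Hlf* and *Fbxl21* were not listed). Their counts are to be read against the shares of all genes that passed, which were 55.8% at 4 hr, 46.1% at 8 hr and 25.6% for 8 against 4 hr. Among 8 further genes of the loops, 0 rose and 5 fell at 4 hr (all genes 29.1% and 26.7%). The largest fall was that of *Cipc*, whose product inhibits CLOCK, from a log2 CPM of 6.71 to 6.90 at 0 hr to 4.81 to 5.10 at 4 hr (log2 fold change -1.81, SE 0.090, limma adjusted p = 3.39e-08), with a return to 5.92 to 6.22 at 8 hr. *Npas2*, a paralog of *Clock*, changed by -1.53 at 4 hr and -1.64 at 8 hr but lay at 2 to 9 reads in the libraries with LPS. *Rora*, an activator of *Arntl*, changed by -0.65 and -1.01, and *Per3* (-0.69) and *Nfil3* (-0.51), a repressor at the D-box, fell at 4 hr. At 8 hr 1 of the 8 was higher (*Bhlhe41*, the paralog of *Bhlhe40*, 0.29) and 3 were lower, and from 4 to 8 hr 2 rose (*Cipc*, 1.06, and *Nfil3*, 0.42). The call of *Bhlhe41* was lost under quantile normalization (0.029) and without WT 0 hr replicate 1, WT 0 hr replicate 2, WT 8 hr replicate 2, S513A 0 hr replicate 1 or S513A 8 hr replicate 1 (limma adjusted p of up to 0.0757). Quantile normalization also ended the calls of *Rora* at 4 hr (-0.44) and of *Nfil3* from 4 to 8 hr (0.35). With a library left out, *Rora* at 4 hr ranged from -0.80 to -0.49 and *Per3* at 4 hr from -0.85 to -0.52. *Nfil3* from 4 to 8 hr then ranged from 0.33 to 0.50. Not every such fit kept these calls. *Arntl* itself ranged from a log2 CPM of 2.85 to 3.10 at 0 hr, 2.64 to 3.16 at 4 hr and 2.42 to 2.95 at 8 hr, and its log2 fold change was -0.035 after 4 hr and -0.28 after 8 hr (limma adjusted p = 0.849 and 0.124).

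Of 18 kinases, ubiquitin ligases and other partners of the PER and CRY proteins, 8 rose and 3 fell at 4 hr, which in sum is a share near that of all genes (55.8%). *Timeless*, which also acts at the replication fork, rose 5.88-fold, from 15 to 27 reads per library at 0 hr to 91 to 119 at 4 hr (log2 fold change 2.56, SE 0.17, limma adjusted p = 3.54e-07), and was 2.62-fold above 0 hr at 8 hr. Others that rose at 4 hr were the casein kinase 2 subunits *Csnk2a2* (0.80) and *Csnk2b* (0.51), the ligase gene *Fbxw11* (0.67), *Usp7* (0.49), *Csnk1a1* (0.49), *Nono* (0.40) and *Sfpq* (0.39). The last 4 of these calls were lost under quantile normalization but kept under median-ratio scaling. With quantile normalization the values at 4 hr were 0.23 for *Usp7*, 0.12 for *Csnk1a1*, 0.050 for *Nono* and 0.068 for *Sfpq*. That of *Sfpq* also ranged from 0.28 to 0.50 with a library left out, and not every such fit kept the call. *Usp2*, a deubiquitinase gene, fell by 1.09 on the log2 scale, *Csnk1e* by 0.50 and *Prkaa1* by 0.17. At 8 hr 6 were higher and 3 lower, the latter being *Csnk1e* (-0.84), *Usp2* (-0.81) and *Fbxw7* (-0.37), and quantile normalization ended the calls of *Usp2* (-0.68), *Csnk1a1* (-0.048) and *Nono* (0.11). From 4 to 8 hr 0 rose and 4 fell, of which *Usp7* (-0.20) and *Csnk1a1* (-0.17) were not called under quantile normalization. Some fits with a library left out also ended the calls of *Usp2*, *Csnk1a1* and *Fbxw7* at 8 hr. The same held for *Usp7*, *Csnk1a1* and *Csnk1e* from 4 to 8 hr. Among 8 co-repressors and histone enzymes of the loops, *Tbl1xr1* fell at 4 hr (-0.51) and at 8 hr (-0.32), and the other 7 passed the test at neither time. The 8 hr value of *Tbl1xr1* passed narrowly (limma adjusted p = 0.0415) and was not called with the prior without a trend. With a library left out it ranged from -0.43 to -0.21, and not every such fit kept the call.

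All 5 clock-controlled outputs examined changed at 4 hr, 2 upwards and 3 downwards, where 29.1% of all genes were higher and 26.7% lower. *Nampt*, for the rate-limiting enzyme of NAD salvage, rose from a log2 CPM of 8.28 to 8.71 at 0 hr to 9.63 to 10.11 at 4 hr and 10.00 to 10.21 at 8 hr, with log2 fold changes of 1.35 and 1.60. *Noct*, the gene of a phosphatase of NADP(H), rose by 0.76 at 4 hr. *Wee1*, a mitotic inhibitor kinase, fell from 3.18 to 3.60 to between 0.94 and 1.72 at 4 hr and 1.94 and 2.42 at 8 hr (log2 fold changes -2.02 and -1.23). The Krüppel-like factor genes *Klf10* (-0.96 at 4 hr) and *Klf9* (-0.31 at 4 hr and -0.80 at 8 hr) also fell. All 6 macrophage genes known to be repressed by NR1D proteins (*Il6*, *Il1b*, *Nlrp3*, *Ccl2*, *Mmp9* and *Cx3cr1*) were higher at 4 and at 8 hr than at 0 hr. The share of all genes that were higher was 29.1% at 4 hr and 24.5% at 8 hr. This list was chosen with earlier results of these data known, so its count is a description only. A part of the NR1D proteins in these changes was not tested. *Il1b* went from 2.24 to 3.06 at 0 hr to 10.51 to 11.20 at 4 hr and 8.78 to 9.24 at 8 hr in log2 CPM. *Nlrp3*, the sensor of an inflammasome, rose from 4.46 to 4.73 to between 8.57 and 9.02 at 4 hr. *Il6* lay at 1 to 8 reads at 0 hr, near the floor, and at 903 to 1420 reads at 4 hr. *Mmp9* and *Cx3cr1* rose further from 4 to 8 hr, to a log2 CPM of 8.19 to 8.78 and 2.06 to 2.92. In these 5 groups of genes, 0 of 45 were called for the genotype mean and for the interaction at 4 and 8 hr, in limma and with voom weights, and 1, 0 and 7 had an unadjusted p under 0.05, against 6.71%, 1.21% and 20.2% of all genes.

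**Figure D5:**
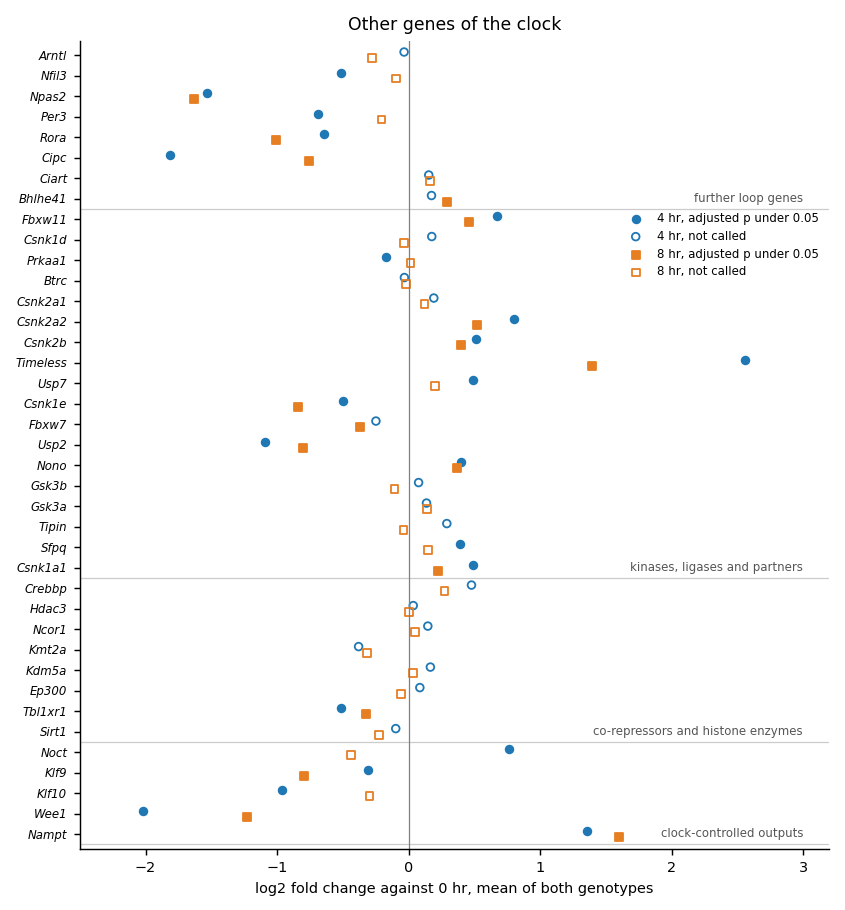
Log2 fold change at 4 hr (circles) and 8 hr (squares) of LPS against 0 hr, as the mean of both genotypes, for the further clock genes in 4 of the 5 groups, without the macrophage genes repressed by NR1D proteins; filled symbols passed an adjusted p of 0.05 and open symbols did not. *Timeless* (2.56) and *Nampt* (1.35) lie farthest to the right of the genes plotted at 4 hr, and *Wee1* (-2.02) and *Cipc* (-1.81) farthest to the left.

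For each clock gene that changed, the gene outside these lists with the most similar log2 CPM over the 12 libraries was found, as a description, since libraries of the same time point are not independent points and many genes shared the difference between times. It was *Dnmt3a* for *Bhlhe40* (Pearson r = 1.00), *Zfp704* for *Tef* (0.99), *Cerk* for *Dbp* (0.99), *Tbc1d32* for *Nr1d2* (0.99), *Tep1* for *Per1* (0.98), *Furin* for *Clock* (0.98), *Atg9b* for *Per2* (0.97) and *Rhob* for *Cry1* (0.97).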

How the data were processed

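Poly(A) RNA of 12 libraries was sequenced. The authors mapped reads to mm10 with HISAT2 and counted them on genes with featureCounts 1.6.3, per the labels. The deposited values are log2 CPM. Their spacing matched whole reads with 0.5 read added to each count before the logarithm, which was inferred from the values. The step between low values gave each library's size and hence whole reads (largest departure 0.00144 read). Where several sizes would give whole reads, the smallest was taken. The program and annotation behind the values are not given in the sources used here. The 10 genes, the wider lists, the markers and the tests were chosen with earlier results of these data known.

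The log2 values were tested two-sided in limma 3.58.1 (R 4.3.3). Its model had a mean for each of the 6 groups, a prior that follows the mean level, and Benjamini-Hochberg adjustment over 11885 genes (at least 1 CPM in at least 2 libraries), with a threshold of 0.05. Within a time contrast the genotypes were averaged, and S513A was compared with WT at each time. Genes named are all 10 clock genes, every wider-list gene past the threshold in an averaged contrast, and, for each clock gene that changed, the gene outside the lists with the highest Pearson r. *Arntl* was added after its values were seen. Some genes of the wider lists are not reported here. Alternatives were no filter, a filter at a mean of 5 CPM, 1 CPM added before the logarithm, median-ratio scaling, quantile normalization, a prior without a trend, voom weights, a replicate block, only the groups compared, and each library left out. The ratios of paralogs were added after seeing the data. Gene positions, exon lengths and overlaps are from GENCODE M21 (GRCm38), promoters from RefSeq (GRCm38.p6). Tables and plots were made with Python 3.11.15, pandas 2.3.3 and matplotlib 3.10.9. Lengths cover all annotated exons, so levels per kb understate genes with rarely used exons.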

Additional observations from a re-analysis of the deposited data

How the results depend on the processing

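For the averaged LPS contrasts the counts of clock genes called ranged from 8 to 9 at 4 hr, 4 to 6 at 8 hr and 6 to 8 at 8 against 4 hr when each library was left out. With a mean of at least 5 CPM required, which leaves out *Nr1d1* and *Dbp*, the count at 8 hr was 3. In a model of only the groups compared, 8 against 4 hr gave 2 in WT and 2 in S513A. The shares of all genes called under the alternatives of this section are not given. No count here can therefore be read as particular to the clock genes. With a library left out, the counts within WT were 5 to 8, 3 to 4 and 2 to 4, and within S513A 5 to 8, 2 to 6 and 2 to 6, for 4 against 0, 8 against 0 and 8 against 4 hr. Of 624 refits of the single genes in the averaged contrasts, 600 kept direction and call, 11 lost the call, 10 gained it and 3 changed sign. *Per2* at 8 hr also lost its call with the stricter filter, quantile normalization and the prior without a trend, and *Nr1d1* gained one at 4 hr under quantile normalization and at 8 hr under quantile normalization, the replicate block and only the groups compared. Changes of sign were confined among these to values without a call, *Cry2* at 4 hr (-0.0026 to 0.19 with a library left out) and *Nr1d1* at 8 against 4 hr (-0.11 to 0.31). For the genotype mean, leaving out a library gave -0.090 to 0.019 for *Clock*, -0.29 to 0.018 for *Per1*, -0.33 to 0.029 for *Per2*, -0.098 to 0.036 for *Tef* and -0.050 to 0.077 for *Bhlhe40*, and quantile normalization gave -0.018 for *Bhlhe40*. Under quantile normalization *Csnk1a1* at 8 hr was -0.048 and was no longer called. The cause was not tested. Of 1377 refits of called wider genes, 1287 kept the call, 89 lost it, most often *Prkaa1* at 4 hr (14 refits) and *Usp7* at 8 against 4 hr (13), and 1 changed sign. *Tbl1xr1* at 8 hr followed (8), and *Fbxw7* at 8 hr was among those that lost the call in 6.

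The labels number the replicates without saying what a number marks. The correlation of the replicate differences between groups ranged from -0.75 to 0.76, so the numbers were not taken as pairs, and with the replicate block the averaged contrasts called 8, 6 and 7 clock genes at 4 hr, 8 hr and 8 against 4 hr. Depth limits *Dbp* at 4 hr (3 to 6 reads) and *Npas2*.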
